A study of Homo sapiens with 6 samples.

Results

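The let-7 family sites described here are the Argonaute crosslink sites whose listed best seed match was that of let-7a-5p, and there were 546 of them among 16230 sites. They were taken by that annotation alone, whatever the type of match or the part of the transcript. All 546 carried the seed shared by let-7a, b, c, d, e, f, g and i and miR-98, and they lay in 463 named genes, with 20 sites outside any named gene. Another 9703 sites had a match to another listed seed and 5981 had none. The sites came from PAR-CLIP with an anti-Argonaute antibody in wild-type HK2 cells, which are immortalised epithelial cells of the human kidney's proximal tubule. In this method RNA takes up 4-thiouridine, ultraviolet light crosslinks it to the bound protein, and the crosslinked T is read as a base change. Cells of 2 libraries received 20 ng/mL of TGF-beta1 during 24 h, and cells of 2 libraries were controls. Both groups were starved of serum for 24 h and given 100 μM 4-thiouridine for 20 h before irradiation at 365 nm. Another 2 libraries, made with IgG, were not analysed here, and values are given without a background. Levels of RNA were not analysed, so HK2 markers were not checked, and more RNA and more Argonaute on each RNA cannot be told apart in any value below.

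MicroRNAs guide Argonaute to messenger RNAs by pairing of a short seed near their 5′ end with the target, which lowers translation and stability of that RNA. The let-7 family is among the most conserved microRNA families in animals. It accumulates as cells differentiate, and it is known for repressing HMGA2, LIN28B, the IGF2BP genes, RAS genes, cell cycle genes and DICER1 itself. TGF-beta1 signals through SMAD proteins and drives matrix production and loss of epithelial traits in kidney tubule cells.

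The mature sequences of the family are shown because every member has the same seed, nucleotides 2 to 8, which is in capitals, while the rest of the sequence differs. The sequences are RefSeq's (GRCh38.p14), and all 9 members of the seed label were matched by name. Over 22 positions, let-7c, let-7e and let-7f differed from let-7a at 1, let-7b, let-7d, let-7g and miR-98 at 2, and let-7i at 4.
let-7a-5p: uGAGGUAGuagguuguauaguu
let-7b-5p: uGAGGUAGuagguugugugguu
let-7c-5p: uGAGGUAGuagguuguaugguu
let-7d-5p: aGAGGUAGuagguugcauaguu
let-7e-5p: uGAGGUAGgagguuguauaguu
let-7f-5p: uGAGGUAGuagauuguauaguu
let-7g-5p: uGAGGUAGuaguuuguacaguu
let-7i-5p: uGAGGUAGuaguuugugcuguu
miR-98-5p: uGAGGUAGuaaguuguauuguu

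The sites with the most crosslinked reads, and then those that differed after TGF-beta1, are shown with the match to the seed in capitals. Each is 30 bases of the RNA-sense strand from the deposited table (hg38), with the crosslinked T as base 15. A full match pairs with nucleotides 2 to 8 and reads CTACCTC. The 6-nt matches pair with nucleotides 2 to 7 (TACCTC) or 3 to 8 (CTACCT), and a bulged match has 1 extra base in the target. In TMED5, CBX5 and PBX2 the full match starts at the base after the crosslinked T. In ZFP36L1 and DCBLD2 the crosslinked T takes the place of the C that would complete the full match.
TMED5, 3′ UTR (chr1:93152679-93152708, minus strand): ctgtgattaagaattCTACCTCtcctgtat
CBX5, 3′ UTR (chr12:54234973-54235002, minus strand): ttcttggattttaatCTACCTCatcttgtc
ZFP36L1, 3′ UTR (chr14:68789114-68789143, minus strand): tcactgtgactacatTACCTCttcagcgcc
DCBLD2, 3′ UTR (chr3:98796126-98796155, minus strand): agaatgtacttatctTACCTCggcatgtac
PBX2, 3′ UTR (chr6:32185756-32185785, minus strand): gtctgactcagatatCTACCTCggagggag
SMAD7, coding (chr18:48921771-48921800, minus strand): gatatcttctatgatCTACCTCaggggaat
SKIL, 3′ UTR (chr3:170396717-170396746, plus strand): ctgtgctctgagcttaTACCTCaattgtat
ACTG1, coding (chr17:81511406-81511435, minus strand): gaccgaCTACCTCatgaagatcctcactga
UGCG, 3′ UTR (chr9:111933059-111933088, plus strand): aatgcttttaaaaatCTACCTtctgtagtt
ZFP36, coding end and 3′ UTR (chr19:39408153-39408182, plus strand): actctgtcacaagttCTACCTCcagggccg

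The let-7 sites lay mostly in 3′ UTRs and coding sequence. Of the 546, 214 (39.2%) were in 3′ UTRs, 163 (29.9%) in coding sequence and 96 (17.6%) in introns. Sites of other listed seeds were in 3′ UTRs in 45.6% and in coding sequence in 24.5%. Another 20 let-7 sites were intergenic, 15 in non-coding RNA, 13 where coding sequence meets the 3′ UTR, 9 antisense, 8 in extended 3′ UTRs, 7 in 5′ UTRs and 1 in a pseudogene. Crosslinked reads were more concentrated than sites: the 3′ UTR sites held 57.7% of let-7 crosslinked reads, the coding sites 24.8% and the intronic sites 7.40%. The 3′ UTR share of let-7 reads was 56.5% ± 0.70 in TGF-beta1 cells and 59.4% ± 0.39 in control cells (SD, n = 2 each). Both treated libraries were lower, and the exact two-sided permutation p of 0.333 is the floor for this design.

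Full matches predominated. The 7-nt match was annotated at 297 let-7 sites (54.4%), against 28.4% of sites of other listed seeds. This share was not particular to let-7, which stood at rank 3 among the 32 listed seed families with at least 100 sites. The miR-22 family had 55.7%, the miR-25/92 family 55.6% and the miR-30-5p family 54.2%. Among the other let-7 sites, 166 matched nucleotides 2 to 7, 80 matched nucleotides 3 to 8, and 3 were bulged. In 3′ UTRs the 7-nt sites held a median of 22 crosslinked reads over the 4 libraries, against 14 at sites matching nucleotides 2 to 7 and 14.5 at sites matching 3 to 8. In coding sequence the medians were 17.5, 8 and 12. An A opposite the first nucleotide of the microRNA is known to add to target recognition, since Argonaute itself binds it. It followed 50.5% of 293 readable 7-nt let-7 matches and 45.0% of 2623 of other seeds. Median reads at 7-nt let-7 sites were 21 with that A and 23 without it in 3′ UTRs, 18 and 16 in coding sequence, and 18 and 15 over all features. The sites counted as without it include those whose next base could not be read. These differences were not tested.

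The crosslink sat next to the match at most let-7 sites. At 352 sites (64.5%) the match began at the base after the crosslinked T, and at 67 it began 2 nt after it. These 419 sites (76.7%) are the class that the authors annotate as adjacent, which held 34.1% of sites of other listed seeds. The deposited table lists the best predicted seed match of each site, and how matches were ranked is not given in the sources used here, so the part of that choice in this difference was not tested. Among the 32 listed seed families with at least 100 sites, let-7 stood highest in the share of adjacent sites, and the next, miR-22, had 64.1%. The miR-196 family, whose match overlaps that of let-7 as described below, fell under this cut with 83 sites and had 69.9%. Where the crosslinked base could be read in the window of a neighbouring site, it was T at 296 of 296 sites of the whole table.

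**Figure D1:**
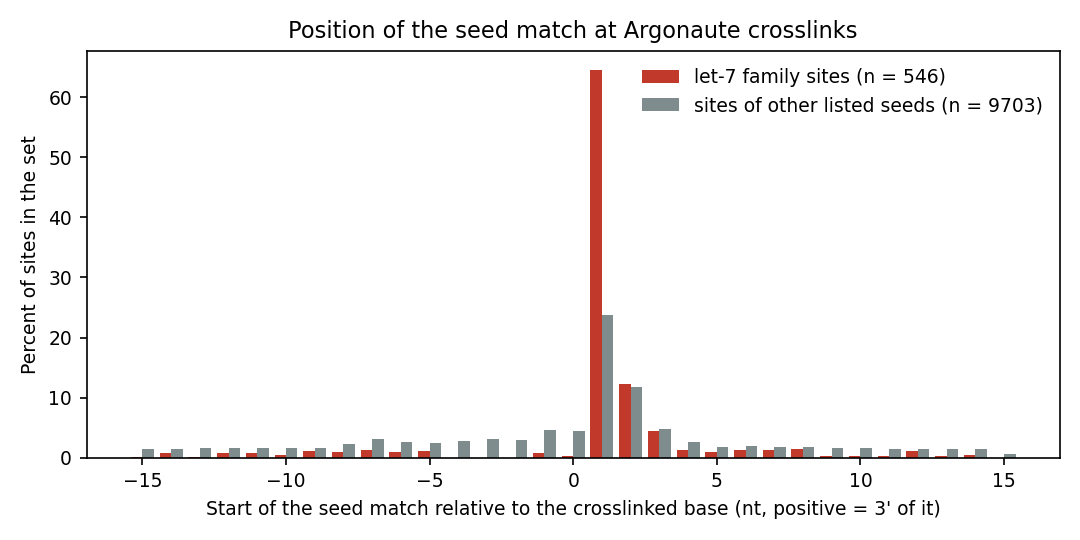
Percent of sites (vertical axis) by the distance in nt from the crosslinked base to the first base of the seed match (horizontal axis), for 546 let-7 sites and 9703 sites of other listed seeds. At a distance of 1 nt stand 64.5% of let-7 sites and 23.8% of the others.

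The base before the full match was mostly the crosslinked base, which is a T by the method. A T preceded 264 (88.9%) of the 297 let-7 7-nt matches, and in 253 (85.2%) it was the crosslinked T itself. The crosslinked T came directly before 51.8% of the 7-nt matches of other listed seeds. These shares restate the distance of 1 nt given above and do not show a separate preference for T. That base faces nucleotide 9 of the microRNA. At 57 of the 166 sites matching nucleotides 2 to 7, the crosslinked T lay directly before the match and so faced nucleotide 8, as in ZFP36L1 and DCBLD2. Pairing farther along the microRNA, at nucleotides 13 to 16, can add to target binding. Its complement ACAA, searched on the RNA-sense strand in the 15 nt before the crosslink, was found at 6.32% of let-7 7-nt matches at a distance of 1 nt. It was found at 5.10% of the like matches of other seeds and in 5.37% of all windows of the table.

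The let-7 seed overlaps that of miR-196, a microRNA of the HOX clusters. CTACCT is at once the match to let-7 nucleotides 3 to 8 and to miR-196 nucleotides 2 to 7, and 369 let-7 windows hold it. The authors list miR-196 as a second adjacent or near seed at 336 of the 546 let-7 sites, and the UGCG site above fits both families equally over these 6 bases. In RPM, the authors' microRNA reads were 97405 for the let-7 seed, second only to miR-21 among the 32 families, and 4990 for the miR-196 seed. Searched on the RNA-sense strand, CTACCTC stood in 1.98% of all 31-nt windows of the table and in 0.185% of the windows not annotated to let-7. Those were 29 windows, and 23 of them were annotated to miR-196, of 83 miR-196 sites in all. They include sites in HMGA2, PBX3 and IRS2, which are often named as let-7 targets. These 3 were picked after their values were seen. Capitals mark the authors' miR-196 match, and in each the letters also hold CTACCTC.
HMGA2, 3′ UTR (chr12:65964532-65964561, plus strand): tccccactactcaatACTACCTctgaatgt
PBX3, 3′ UTR (chr9:125966820-125966849, plus strand): ttagagtgctcacttACTACCTctgaacaa
IRS2, 3′ UTR (chr13:109755838-109755867, minus strand): caaaacgaccacagtcCTACCTcagttcaa

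The libraries differed in depth, which was 5293207 and 3415699 reads in TGF-beta1 replicates 1 and 2 and 1714444 and 1926255 in control replicates 1 and 2. Let-7 sites held 4579 and 4782 crosslinked reads in TGF-beta1 cells and 2437 and 4154 in control cells. A crosslink was seen at 519 and 513 let-7 sites in TGF-beta1 libraries and at 457 and 489 in control libraries. All 4 libraries had one at 384 sites. Neither control library had one at 15 sites and neither TGF-beta1 library at 2, beside the greater depth of the treated libraries. A site held between 2 and 653 reads over the 4 libraries, and these counts include possible PCR copies.

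Let-7 sites were strongly crosslinked. Their median of 13 reads per site was the highest of the 32 families, miR-21 coming next with 12.5, against 8 at sites of other listed seeds and 6 at sites with no match. Together they held 6.70% of all crosslinked reads, the third largest sum after the miR-27 and miR-103 families. In 3′ UTRs, the mean log2(scaled RPM + 1) of 214 let-7 sites exceeded that of 4423 sites of other seeds in every library. RPM is the authors' count of crosslinked reads relative to the depth of the library, and scaled means divided by a TMM factor, which sets the bulk of sites level between libraries. The excess was 0.38 and 0.37 in TGF-beta1 cells and 0.45 and 0.45 in control cells. Its mean of 0.41 ± 0.04 (SD, n = 4 libraries) had the smallest p that 4 libraries allow (exact two-sided sign-flip permutation p = 0.125). Among adjacent 7-nt matches alone (81 let-7 and 1086 other sites) the mean excess was also 0.41. It was smaller, at 0.27, over sites crosslinked in every library (170 let-7 and 2679 other sites) and likewise 0.27 on covering reads.

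Pooled over match types, reads at let-7 sites also carried the crosslink more often. At sites crosslinked in every library, 41.1% and 41.6% of reads covering a let-7 site bore the crosslink in TGF-beta1 cells, and 47.2% and 48.3% in control cells. At sites of other listed seeds the values were 25.9% and 28.2% in TGF-beta1 cells and 30.8% and 34.2% in control cells. At sites without a match they were 14.4% and 16.0% in TGF-beta1 cells and 17.8% and 19.4% in control cells. Let-7 sites were therefore above both other sets in each of the 4 libraries, by 13.4 to 16.4 percentage points over other seeds (exact two-sided sign-flip permutation p = 0.125, the smallest possible). The gap was narrower, 6.11 to 9.38 points, between 7-nt matches that start at the next base, which let-7 has in excess. It did not hold for matches to nucleotides 2 to 7 at that distance, of which 41 were let-7 and 325 of other seeds. There let-7 stood at 35.3% and 37.4% in TGF-beta1 cells and 38.2% and 44.7% in control cells. Other seeds stood at 38.1% and 38.9% in TGF-beta1 cells and 41.3% and 44.3% in control cells, so let-7 was lower in 3 of the 4 libraries. In each of the 3 sets both TGF-beta1 libraries lay below both control libraries, so the lower rate in treated cells was shared with sites outside the family; that difference was not tested.

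**Figure D2:**
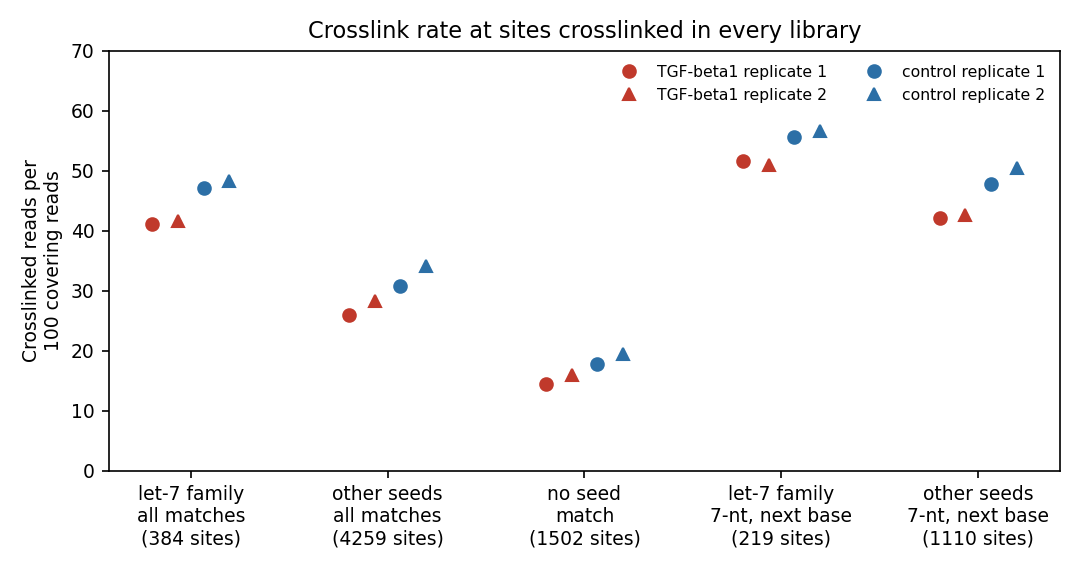
Crosslinked reads per 100 reads covering the site (vertical axis) in each of the 4 libraries, for let-7 sites, sites of other listed seeds and sites with no match, and for 7-nt matches that begin at the base after the crosslink. Let-7 sites lie at 41.1 to 48.3, above both other sets in every library.

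A few strong sites carried much of the signal. The 15 highest let-7 sites held 29.4% of the family's scaled RPM, and at 8 of the 15 the values of TGF-beta1 and control libraries overlapped. Of all 1059 sites tested further below, both treated libraries lay above both controls at 23.9% and below both at 24.5%. Separation of the groups was therefore common over the whole table. The highest let-7 site, in TMED5, a cargo receptor of the early secretory pathway, held 49.9 and 51.1 scaled RPM in TGF-beta1 cells and 70.7 and 63.4 in control cells. CBX5, which encodes a heterochromatin protein, had 49.6 and 36.0 in TGF-beta1 cells and 53.1 and 55.1 in control cells. Both TGF-beta1 libraries lay below both control libraries at these 2 sites, yet neither passed the test (limma adjusted p = 0.289 and 0.42). ZFP36L1, an RNA-binding protein that promotes mRNA decay, had 35.1 and 45.7 scaled RPM in TGF-beta1 cells and 41.5 and 38.6 in control cells. DCBLD2, a receptor-like membrane protein, had 38.8 and 36.0 in TGF-beta1 cells and 27.6 and 44.4 in control cells. PBX2, a homeodomain protein that partners HOX proteins, had 35.7 and 37.4 in TGF-beta1 cells and 25.4 and 39.3 in control cells. In these 3 the groups overlapped, and the control replicates were farther apart than the group means.

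The next sites by level included E2F6, a transcriptional repressor, at 29.6 and 26.9 scaled RPM in TGF-beta1 cells and 29.8 and 26.9 in control cells. THBS1, a matrix glycoprotein that can activate latent TGF-beta, had 19.4 and 25.1 in TGF-beta1 cells and 11.6 and 26.5 in control cells. RBM12B, an RNA-binding protein, had 12.6 and 16.3 in TGF-beta1 cells and 24.3 and 23.4 in control cells. E2F6 was the most even of the 3, and RBM12B was lower in both treated libraries without passing the test (limma adjusted p = 0.157). SLC25A13, a mitochondrial aspartate-glutamate carrier, FIGN, a microtubule-severing protein, PGRMC1, a haem-binding membrane protein, HIF1AN, the hydroxylase that inhibits HIF, and SERTAD2, a transcriptional coregulator, held means of 11.8 to 18.5 scaled RPM in TGF-beta1 cells and 11.7 to 20.0 in control cells. In PGRMC1 both treated libraries were above both controls, at 22.2 and 13.7 against 11.6 and 11.7, with a limma adjusted p of 0.366. The other 2 of the 15, SMAD7 and SKIL, differed between groups and are described below.

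**Figure D3:**
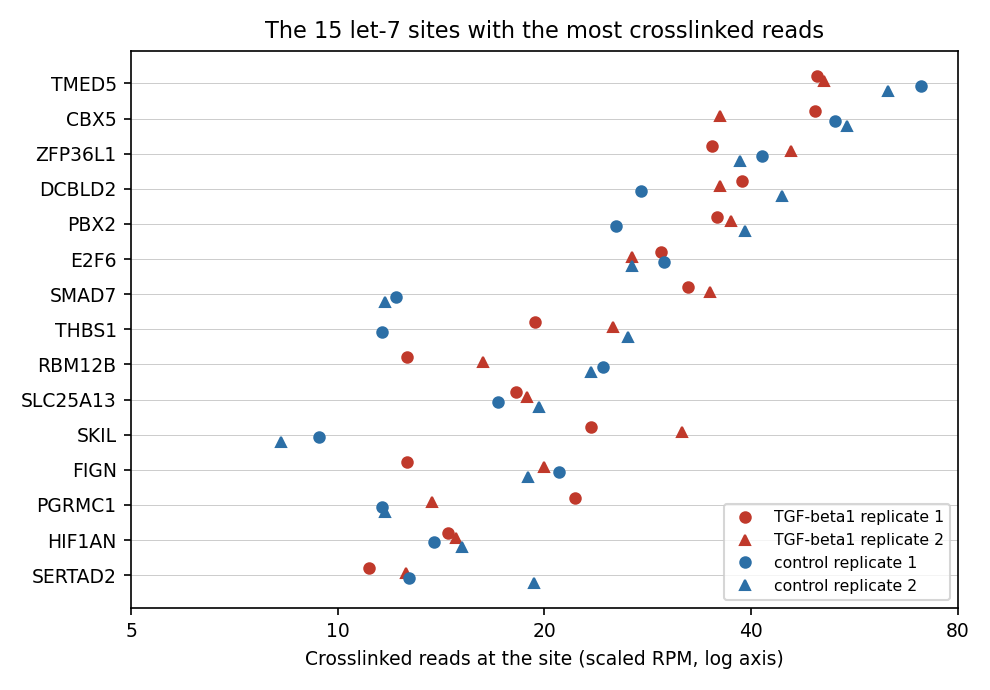
Crosslinked reads in scaled RPM (horizontal log axis) in each of the 4 libraries at the 15 let-7 sites with the highest mean, labelled by gene. In SMAD7 and SKIL both TGF-beta1 libraries lie clear to the right of both controls, while in TMED5 they lie to the left.

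Most let-7 genes had 1 such site. Of the 463 genes, 417 held 1 site, 36 held 2 and 10 held 3 or more. DICER1, which encodes the enzyme that cuts microRNA precursors, held 4 of its 7 sites in the family, 2 in the 3′ UTR and 2 in coding sequence, with 97 reads in the gene and 56 at these 4. HMGA2, a chromatin protein and the best known let-7 target, held 4 sites in its 3′ UTR with 21, 16, 9 and 30 reads, or 76 of the 250 reads in the gene. The HMGA2 site shown above, which holds CTACCTC but is annotated to miR-196, had 50 reads and is not counted here. The 3 sites of FIGN, all 7-nt matches followed by A, held 204, 20 and 65 reads in its 3′ UTR. These genes took their let-7 reads at several places, in contrast to DCBLD2, where 1 of 5 let-7 sites held 431 of 449 let-7 reads. ZFHX4, a zinc finger homeodomain protein, had 3 sites with 42, 91 and 19 reads, and RBM12B 3 with 10, 5 and 210. The long non-coding RNA NEAT1, which scaffolds nuclear paraspeckles, held 6 sites with 2 to 20 reads each, 55 of 1448 reads in all. HIPK2, a nuclear kinase, UGCG, the glucosylceramide synthase, and ZFAND3 held 3 each.

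The comparison of treated with control cells asked whether TGF-beta1 moved the family as a whole. The let-7 share of all crosslinked reads was 6.11% and 6.62% in TGF-beta1 cells and 6.59% and 7.72% in control cells. The groups overlapped, and the mean difference of -0.79 percentage points was not past the test (exact two-sided permutation p = 0.667). That difference was -0.23 points without control replicate 2 and -1.35 without control replicate 1. In 3′ UTRs the share was 6.13% and 6.24% in TGF-beta1 cells and 6.61% and 6.93% in control cells. Here the treated libraries were both lower, by 0.59 points on average, with the same exact two-sided permutation p of 0.333, which this design cannot go below. In coding sequence it was 7.98% and 9.08% in TGF-beta1 cells and 9.11% and 10.8% in control cells, and in introns 4.28% and 5.74% against 4.53% and 8.46%.

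Site by site, 3 let-7 sites were higher and 3 lower after TGF-beta1. The higher ones lay in SMAD7, SKIL and ACTG1 and the lower ones in UGCG, ZFHX4 and ZFP36. The limma test on log2(scaled RPM + 1) covered the 1059 sites of the whole table that had enough reads, with p adjusted over all of them by Benjamini-Hochberg and a threshold of 0.05. Of the 546 let-7 sites 85 passed the filter on low values and 461 did not. The filter asked for enough reads in at least 2 libraries of either group. UGCG, ZFHX4 and ZFP36 did not meet it on their TGF-beta1 libraries alone. They passed through the control libraries, where they are higher, so their testing was not independent of the direction found. Over all 1059 sites 7.08% were called, 3.68% higher and 3.4% lower, so 6 of 85 is near the background. The median log2 difference was 0.02 over the let-7 sites tested and 0.05 over all sites tested. Both treated libraries were above both controls at 18 of the 85 and below at 20, where 23.9% and 24.5% of all tested sites did so. No label says that replicates came from separate cultures. The p-values therefore rest on a spread between libraries that could be technical alone.

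**Figure D4:**
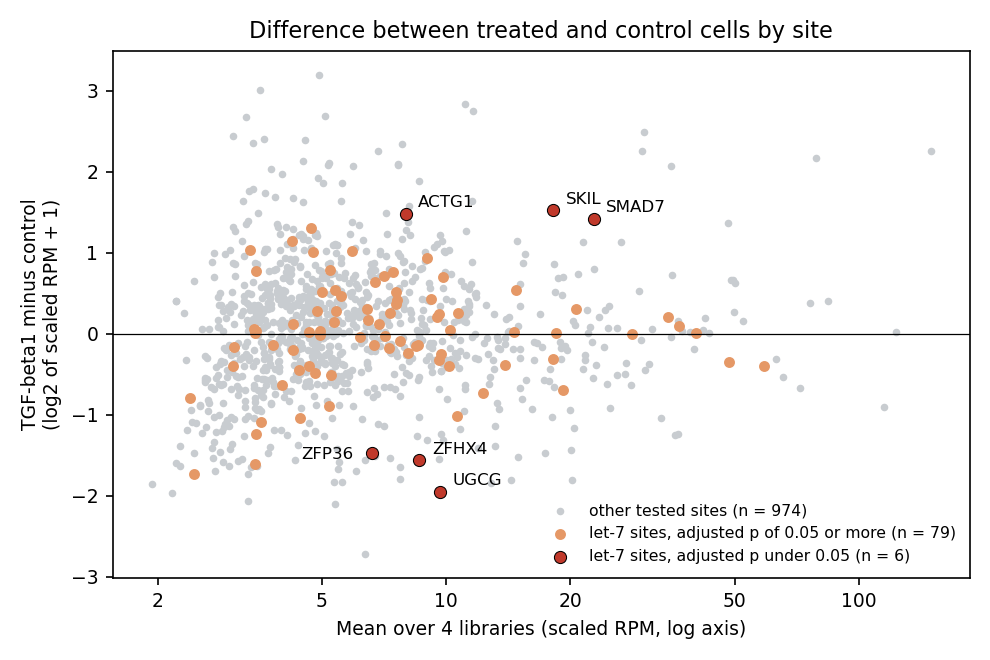
Difference between TGF-beta1 and control cells in log2(scaled RPM + 1) (vertical axis) against the mean over 4 libraries (horizontal log axis) for all 1059 tested sites. The 85 let-7 sites lie among the rest, and the 6 that passed the test are named.

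SMAD7 and SKIL are induced brakes on TGF-beta signalling: SMAD7 blocks the receptors, and SKIL represses SMAD complexes on DNA. The SMAD7 site, in its coding sequence at chr18:48921786, had 105 and 122 crosslinked reads in TGF-beta1 cells and 22 and 34 in control cells. In scaled RPM these were 32.3 and 34.9 in TGF-beta1 cells and 12.2 and 11.7 in control cells, a ratio of means of 2.82 and a log2 difference of 1.42 ± 0.27 (SE, limma adjusted p = 0.00204). It was the only SMAD7 site in the table, so no other site of that gene stands beside it. The SKIL site, in the 3′ UTR at chr3:170396731, had 76 and 111 reads in TGF-beta1 cells and 17 and 24 in control cells. That is 23.4 and 31.7 scaled RPM in TGF-beta1 cells and 9.40 and 8.26 in control cells, with a log2 difference of 1.53 ± 0.30 (SE, limma adjusted p = 0.00227). The groups were far apart at both sites. A second let-7 site of SKIL had 30 and 35 reads in TGF-beta1 cells and 9 and 16 in control cells, and did not pass (limma adjusted p = 0.292). The 7 other SKIL sites together stood at 1.72 times the control level, against 3.12 times at the site that passed; the difference between them was not tested.

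The third higher site, in the coding sequence of ACTG1 (cytoplasmic gamma-actin) at chr17:81511421, had 43 and 39 reads in TGF-beta1 cells and 8 and 9 in control cells. Its log2 difference was 1.48 ± 0.41 (SE, limma adjusted p = 0.0264). Its match begins 8 nt before the crosslink and not after it, unlike the other 5. The same stretch of ACTB, a paralog whose window differs at 2 of 31 bases, had 26 and 61 reads in TGF-beta1 cells and 14 and 18 in control cells (log2 difference 0.70, limma adjusted p = 0.334). Reads could be split between the 2 actin genes, which makes the ACTG1 value uncertain. The 40 other ACTG1 sites stood at 2.00 times the control level, and the site itself at 3.24 times.

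Among the lower sites, UGCG, which makes the first glycosphingolipid from ceramide, had the largest log2 difference of the 6. Its 3′ UTR site at chr9:111933073 had 13 and 10 reads in TGF-beta1 cells and 29 and 46 in control cells, or 4.00 and 2.86 scaled RPM in TGF-beta1 cells and 16.0 and 15.8 in control cells. The control level was 4.64 times the treated one, a log2 difference of -1.95 ± 0.39 (SE, limma adjusted p = 0.0023). The 38 other UGCG sites together were 3.27 times higher in control cells, so the let-7 site fell along with the rest of the gene. The ZFHX4 coding site at chr8:76864221 had 12 and 14 reads in TGF-beta1 cells and 21 and 44 in control cells (log2 difference -1.56 ± 0.40 SE, limma adjusted p = 0.0146). The other 5 ZFHX4 sites were 2.46 times higher in control cells. ZFP36, the mRNA decay factor tristetraprolin, had 7 and 14 reads in TGF-beta1 cells and 15 and 35 in control cells at chr19:39408167. Its log2 difference was -1.47 ± 0.45 (SE), the nearest of the 6 to the threshold (limma adjusted p = 0.049; 0.141 without control replicate 2), and its 1 other site held too few reads to compare.

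**Figure D5:**
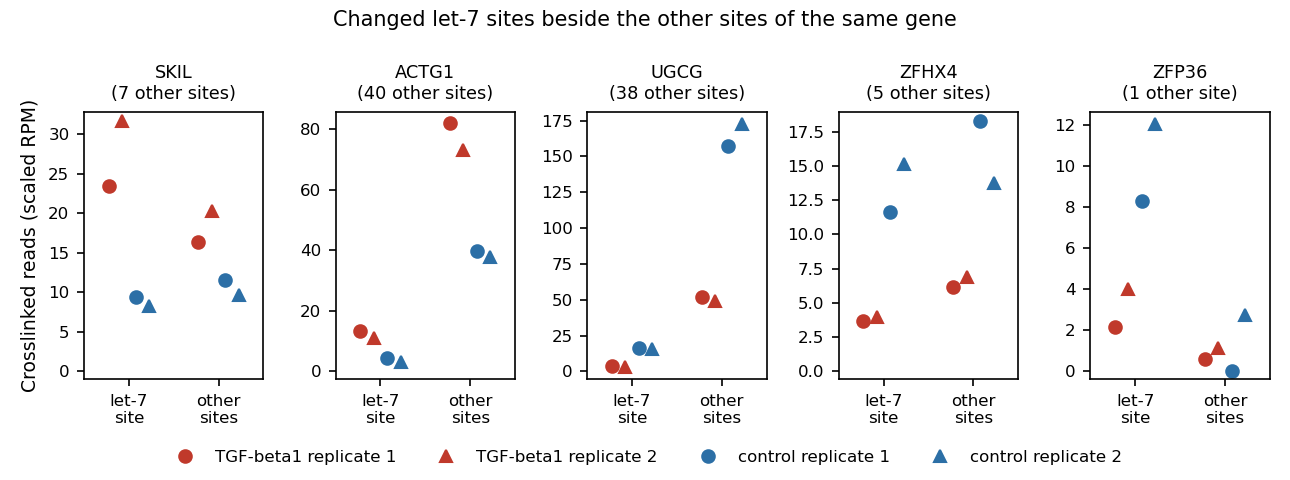
Crosslinked reads in scaled RPM (vertical axis, one scale per gene) at the let-7 site and summed over the other sites of the same gene, in each of the 4 libraries. In UGCG, ZFHX4, ACTG1 and SKIL the other sites lie on the same side of the controls as the let-7 site.

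Without TGF-beta1 replicate 1 or without replicate 2, the spread comes from the control libraries alone, and the single treated library is assumed to vary like them. In these fits 3 and 5 of all 1059 sites were called, against 75 with every library, and 0 of the 6 were among them (limma adjusted p of 0.167 to 0.539). The log2 differences of the 6 stayed at 1.33 to 1.75 for SMAD7, SKIL and ACTG1, and at -2.18 to -1.16 for UGCG, ZFHX4 and ZFP36. Without TMM scaling the median of all tested sites moved to -0.51, UGCG and ZFHX4 kept their calls, and SMAD7, SKIL, ACTG1 and ZFP36 lost theirs (limma adjusted p = 0.534, 0.451, 0.461 and 0.0517).

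At the level of whole genes, reads were summed over all sites of a gene, and 255 of the 463 let-7 genes passed the filter. Of these 5 were higher and 5 lower after TGF-beta1, where 3.08% of all 1266 tested genes were called, 1.58% higher and 1.5% lower. The median log2 difference was -0.02 over tested let-7 genes and 0.02 over all genes. Let-7 sites held a median of 21.6% of the reads of a tested let-7 gene, so most of a gene's sum usually lay elsewhere. Without control replicate 1 or without control replicate 2, the spread comes from the TGF-beta1 libraries alone. In both fits every gene call of the whole table was lost, those of the 10 among them. The log2 differences of the 5 higher genes named next stayed at 0.94 to 2.48, and those of the 4 lower genes named at -1.96 to -1.44. Without TGF-beta1 replicate 1 or 2, 5 and 6 of the 10 were called. Without TMM scaling the median of all genes moved to -0.45, and 1 let-7 gene was higher and 8 lower, with 6 of these 9 among the 10.

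The higher genes were SMAD7, ACTG1, PMEPA1, FN1 and COL4A1. PMEPA1, a feedback inhibitor of TGF-beta signalling, averaged 51.4 ± 6.71 scaled RPM in TGF-beta1 cells and 8.46 ± 0.23 in control cells (SD, n = 2 each; limma adjusted p = 0.000449). FN1, the matrix protein fibronectin, averaged 298 ± 15.4 in TGF-beta1 cells and 86.9 ± 9.35 in control cells (limma adjusted p = 0.000449). Little of this was at let-7 sites: 13 of 400 reads in PMEPA1 and 18 of 2481 in FN1. COL4A1, a basement membrane collagen with 11 of 155 reads at its let-7 site, averaged 18.2 ± 1.97 in TGF-beta1 cells and 5.69 ± 2.57 in control cells (limma adjusted p = 0.0433).

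The lower genes included UGCG, ZFHX4, PARD6B and GPRC5A. UGCG averaged 51.6 ± 0.33 scaled RPM in TGF-beta1 cells and 189 ± 22.9 in control cells (SD, n = 2 each; limma adjusted p = 0.000449). PARD6B, an epithelial polarity protein, averaged 21.3 ± 0.45 in TGF-beta1 cells and 70.9 ± 0.60 in control cells (limma adjusted p = 0.00229), with 28 of 467 reads at its let-7 site. GPRC5A, an orphan receptor of epithelia, averaged 6.68 ± 0.99 in TGF-beta1 cells and 23.2 ± 4.72 in control cells (limma adjusted p = 0.0158). When each let-7 gene was given its let-7 sites alone, 79 passed the filter and 4 were called, where 3.39% of the 1090 genes in that fit were: SMAD7 and SKIL higher, UGCG and ZFHX4 lower.

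Of 78 genes often named as let-7 targets, 47 had an Argonaute site of any kind and 21 had one annotated to let-7. PBX3 and IRS2, whose sites shown above are annotated to miR-196, are not among the 21. Nor are BACH1 and RRM2, each with a 3′ UTR window that holds CTACCTC. Those windows are annotated to miR-196 (BACH1, 13 reads) and to miR-221 and miR-222 (RRM2, 10 reads). The highest of the 21 were E2F6, with 322 let-7 reads, FIGN with 289, THBS1 with 249 and HOXA9, a homeodomain factor, with 149. The oncofetal RNA-binding protein IGF2BP1 had 17 reads at 2 sites, all of its reads. Among the 18 that were tested as genes, 0 were higher and 1 was lower by limma, at a median log2 difference of -0.21. At an unadjusted limma p under 0.05 there were 1 and 2, beside 18 and 22 of all 255 tested let-7 genes. By edgeR 0 and 1 were called.

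Of 45 TGF-beta and SMAD pathway genes 26 had a site and 4 a let-7 site: SKIL, SMAD7, THBS1 and PMEPA1. All 4 were tested, and SMAD7 and PMEPA1 were higher. Of the 17 tested genes of the whole list, with or without a let-7 site, 5 were higher and 1 lower, where 1.58% of all tested genes were higher. SKIL as a gene averaged 44.2 ± 10.8 scaled RPM in TGF-beta1 cells and 20.3 ± 1.07 in control cells (SD, n = 2 each) and missed the threshold (limma adjusted p = 0.052). It passed by edgeR (adjusted p = 0.0372). The median log2 difference of the 4 was 1.19, against 0.19 over the 17 tested genes of the list. The 4 are among the 17, and the list was fixed with earlier results of these data known. These gene sums cover sites of every seed, and the gap was not tested. Of 32 matrix and contractile genes, 4 had a let-7 site (THBS1, FN1, COL4A1 and TIMP1), 3 were tested, and FN1 and COL4A1 were higher. Over the whole list 4 of 11 tested genes were higher, at a median log2 difference of 0.69.

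Among 28 genes of microRNA production and silencing, 4 had let-7 sites: DICER1, AGO2, the slicing Argonaute, TARBP2, which binds Dicer, and the helicase DDX5. As a gene, DICER1 averaged 7.53 ± 0.22 scaled RPM in TGF-beta1 cells and 9.76 ± 0.51 in control cells (SD, n = 2 each; limma adjusted p = 0.712). Of 25 cell cycle genes 8 had let-7 sites, led by E2F6, the mitotic kinase AURKB with 52 let-7 reads, E2F5 with 29 and the ubiquitin-conjugating enzyme CDC34 with 28. The AURKB site had 25 and 4 reads in TGF-beta1 cells and 12 and 11 in control cells, so its treated replicates lay on either side of both controls. Of 29 insulin and RAS genes, IGF1R alone had a site annotated to let-7, with 20 of the 390 reads in that gene. The IRS2 site shown above, whose letters hold CTACCTC, is annotated to miR-196 and so is not counted. In these last 3 lists 4, 4 and 1 let-7 genes were tested, and 0 were called by limma, by edgeR or at an unadjusted p under 0.05.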

How the data were processed

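Argonaute PAR-CLIP was measured in 4 libraries of HK2 cells, 2 with TGF-beta1 and 2 controls, grouped by their labels. Per the file headers, the deposited table gives RPM (reads relative to library depth) for crosslinked and for covering reads at each site, with GENCODE 27 annotation, the best seed match, and the distance of that match from the crosslink as another kind of value. The authors' microRNA reads are a score per seed, scaled to the microRNA reads of HK2 as RPM. The submitters' processing notes name bcl2fastq 2.20.0.422, STAR 2.7.1a, bedtools and hg38; the caller of crosslink sites is not given in the sources used here. Removal of PCR copies is not stated, so reads may not be independent molecules.

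The RPM values were whole multiples of 1 read in 100% of nonzero cells (tolerance 0.1 reads), so reads were recovered. Columns of 4 other samples, whose header names begin with RNAseq, were not used. Sites and gene sums were filtered with filterByExpr at a minimum count of 10, divided by TMM factors (0.613 to 1.51 for sites, 0.666 to 1.38 for genes), and tested with limma 3.58.1 with a variance trend on log2(RPM + 1) in R 4.3.3, with Benjamini-Hochberg adjustment over the whole table. The pseudocount of 1 understates changes of low sites. Shares were compared by exact permutation over libraries, and let-7 with other seeds by exact sign flips over 4 libraries. Ratios are of group means of scaled RPM. The count tests edgeR 4.0.16 and DESeq2 1.42.0 on recovered reads, other scalings, filters and pseudocounts, covering reads, single libraries left out and the replicate number as a block were alternatives. The fit was tested on simulated data. Of simulated 2-fold changes it recovered 7.27% among sites and 27.1% among genes, and of 4-fold changes 70% and 90.9%. Most 2-fold changes were thus missed, so a site or gene that did not pass is not shown to be unchanged. Python 3.11.15, pandas 2.3.3, numpy 2.4.6 and scipy 1.17.1 did the rest.

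Named were sites and genes past a test, the 15 highest let-7 sites and genes by mean scaled RPM, genes with 3 or more let-7 sites, and list members; 1 gene and 1 site sequence that met these rules are not reported here. The members and lists were chosen with earlier results of these data known. Same-numbered replicates had correlated deviations of 0.117 over sites and 0.131 over genes, but only 2 pairs exist and no label ties them, so they were not treated as pairs.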

Additional observations from a re-analysis of the deposited data

How the results depend on the processing

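Of 6 let-7 sites called by limma, 2 were called without TMM scaling (both among the 6) and 1 without the variance trend (UGCG). Without the filter on low values 0 of 546 let-7 sites were called, with 33 upward and 13 downward at an unadjusted p under 0.05. On covering reads over all sites, 0 of 259 let-7 sites tested were called, with 7 upward and 14 downward unadjusted. Unadjusted counts of the whole table were not taken, so these counts stand without a background. On covering reads over sites crosslinked in every library, 17 of 208 let-7 sites tested were called, 4 higher and 13 lower, with 5 of the 6 among them. All sites split 100 and 102 of 3692 there. With at least 3 reads in every library, 4 of 152 let-7 sites tested were called, 3 higher and 1 lower, all among the 6. In that fit 19 of all 1797 sites were higher and 12 lower. edgeR called 7 and DESeq2 4. Leaving out each library gave 0 to 8. Against 10 let-7 genes called, 2 were called without the filter, 1 without the trend (PMEPA1), 9 without TMM scaling (1 higher and 8 lower, 6 of these 9 among the 10), 6 on covering reads (5 among the 10), 15 on the same reads where every library had a crosslink (8 among the 10) and 4 on let-7 sites alone (3 among the 10; SKIL is the other). Leaving out each library gave 0 to 6. The cause of these moves was not tested, beside the fewer samples or sites that some have by construction.

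With the replicate block, 8 let-7 sites and 17 let-7 genes were called, and all 6 and all 10 were among them; this block uses a shared number only. Over the whole table, the 75 sites called became 28 without TMM scaling (4 higher and 24 lower, against 39 and 36), 0 without the filter, 31 with at least 3 reads in every library, 25 without the trend, 42 with DESeq2, 0 and 202 on covering reads, 117 with the block, and 3 to 116 with a library left out. The 39 genes called became 29 without TMM scaling (6 higher and 23 lower, against 20 and 19), 4 without the filter, 3 without the trend, 25 and 84 on covering reads, 70 on 3′ UTR sites and 0 to 17 with a library left out. The excess of let-7 3′ UTR sites over other seeds kept its direction in the alternatives run for it, at 0.27 to 0.52, and the differences in share stayed negative in theirs. Depth limited the site test to 85 of 546 let-7 sites.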

Other observations

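Some of the strongly crosslinked let-7 matches lay outside 3′ UTRs and coding sequence. The following were picked after their values were seen, and each has the 7-nt match. All but LHX1 were the highest of their class by reads, and LHX1 came next after KBTBD2 among 5′ UTR sites. An intergenic site at chr10:123186172 had 44 and 35 reads in TGF-beta1 cells and 15 and 32 in control cells. A 5′ UTR site of KBTBD2, an adaptor of a ubiquitin ligase, had 38 and 28 reads in TGF-beta1 cells and 9 and 39 in control cells. A 5′ UTR site of LHX1, a transcription factor of kidney development, had 40 and 41 reads in TGF-beta1 cells and 8 and 22 in control cells. These 3 did not pass the site test (limma adjusted p = 0.751, 0.839 and 0.16). In scaled RPM the LHX1 groups did not overlap, at 12.3 and 11.7 in TGF-beta1 cells and 4.42 and 7.57 in control cells. The highest intronic site, in TIA1, an RNA-binding protein of stress granules, had 26 and 27 reads in TGF-beta1 cells and 11 and 36 in control cells.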
